A study of Homo sapiens with 6 samples.

Results

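The genes described here make cholesterol, control its supply through the sterol regulatory element binding proteins (SREBPs), or move and export sterols under the liver X receptors (LXRs). They were chosen by name as 33 genes, and 30 of them had a probe set annotated to them alone, of 19775 genes with such a probe set on the array. CYP51A1, FDFT1 and NR1H2 had none and were not analysed here. A filter that left out the dimmest 40% of probe sets kept 28 members among 13572 genes tested, and MVD and ABCA1 did not pass it. The 28 all had both group means above the filter level, a log2 signal of 4.80. Kasumi-1 is an acute myeloid leukaemia cell line that carries the RUNX1-RUNX1T1 fusion. Its RNA was measured on 6 one-colour arrays. Cells of 3 arrays had received vehicle and those of the other 3 homoharringtonine (HHT) at 20 nM, both for 24 h in the same serum-containing medium. HHT is a plant alkaloid that blocks the elongation step of translation. The labels do not say whether the arrays of a group came from separate cultures, so p-values reflect only the scatter among these samples, and that scatter may be technical.

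Cholesterol is built from acetyl-CoA through mevalonate, isoprenoids, squalene and lanosterol. When sterols are scarce in the endoplasmic reticulum, SCAP escorts SREBP to the Golgi, where SREBP is cleaved, enters the nucleus and switches on nearly every enzyme of the pathway. When sterols are plentiful, INSIG proteins hold SCAP and SREBP back, and oxysterols activate LXRs, which switch on exporters such as ABCA1 and ABCG1. INSIG1 is itself an SREBP target, whereas INSIG2 is not a classical one. The members were sorted by this background knowledge into 23 genes under SREBP2 control, 4 under LXR control (ABCA1, ABCG1, NR1H3 and MYLIP), SREBF1 under both, and 5 assigned to neither.

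Promoter sequence is shown for 5 members that fell and 2 that rose, because these genes differed in a short motif, and they were picked after the motif counts were seen. SREBP usually binds beside NF-Y, which recognises CCAAT, and SP1, which recognises GGGCGG. The 200 bases before the gene start are given 5′ to 3′ on the gene's strand, from RefSeq on GRCh38.p14. INSIG1 lies at chr7:155297678-155297877 (+), LSS at chr21:46228775-46228974 (-), TMEM97 at chr17:28319000-28319199 (+), MSMO1 at chr4:165327469-165327668 (+) and SREBF2 at chr22:41832905-41833104 (+). INSIG2 lies at chr2:118088271-118088470 (+), the first of 2 windows listed for it, and PMVK at chr1:154936720-154936919 (-). Capitals mark CCAAT on either strand (ATTGG on the opposite one) and, in SREBF2, the sterol regulatory element.
INSIG1: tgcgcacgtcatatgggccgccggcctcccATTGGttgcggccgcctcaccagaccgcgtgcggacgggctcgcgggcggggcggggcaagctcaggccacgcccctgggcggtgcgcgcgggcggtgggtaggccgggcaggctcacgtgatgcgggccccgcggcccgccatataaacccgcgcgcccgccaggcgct
LSS: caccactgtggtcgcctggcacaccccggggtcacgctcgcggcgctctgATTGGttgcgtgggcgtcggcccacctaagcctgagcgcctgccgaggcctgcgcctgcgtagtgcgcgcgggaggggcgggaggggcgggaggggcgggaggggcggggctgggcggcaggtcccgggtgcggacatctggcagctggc
TMEM97: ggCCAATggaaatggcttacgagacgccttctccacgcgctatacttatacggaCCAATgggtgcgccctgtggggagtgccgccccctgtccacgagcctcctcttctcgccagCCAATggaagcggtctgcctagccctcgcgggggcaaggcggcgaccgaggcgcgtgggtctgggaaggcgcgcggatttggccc
MSMO1: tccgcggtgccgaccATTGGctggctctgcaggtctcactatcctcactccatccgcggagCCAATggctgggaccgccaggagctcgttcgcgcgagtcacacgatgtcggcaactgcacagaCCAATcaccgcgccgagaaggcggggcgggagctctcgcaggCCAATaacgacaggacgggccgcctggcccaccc
SREBF2: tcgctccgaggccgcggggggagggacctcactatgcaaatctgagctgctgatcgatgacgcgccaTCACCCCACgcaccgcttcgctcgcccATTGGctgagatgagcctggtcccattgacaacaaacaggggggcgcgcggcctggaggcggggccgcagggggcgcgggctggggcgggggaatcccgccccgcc
INSIG2: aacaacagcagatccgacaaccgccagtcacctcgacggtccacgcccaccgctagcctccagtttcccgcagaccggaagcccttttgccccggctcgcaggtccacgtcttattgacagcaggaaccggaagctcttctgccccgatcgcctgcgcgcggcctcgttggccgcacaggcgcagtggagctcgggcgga
PMVK: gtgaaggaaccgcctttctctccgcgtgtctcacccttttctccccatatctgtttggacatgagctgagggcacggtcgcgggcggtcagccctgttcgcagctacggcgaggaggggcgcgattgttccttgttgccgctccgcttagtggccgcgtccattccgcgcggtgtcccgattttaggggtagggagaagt
Of these windows, TMEM97 held 3 CCAAT motifs, MSMO1 held 4, and INSIG1, LSS and SREBF2 held 1 each, while INSIG2 and PMVK held none. The element TCACNCCAC, searched on both strands in windows from 250 bases before to 50 after the start, was found in 1 member, SREBF2, and in 1.13% of all 35116 windows. CCAAT was found for 14 of the 15 members that fell and had a window. It was found for 3 of the 5 that rose (TM7SF2, HSD17B7 and NR1H3), so the 2 shown are the exceptions. Of the other 7 members, 4 held it (MVK, MVD, NPC2 and MYLIP). CCAAT was found for 42.9% of all tested genes, 43.7% of all that fell and 42.7% of all that rose. GGGCGG, found for 73.0% of tested genes, was present for 14 of the same 15 members and for all 5 that rose. The E-box CACGTG, which MYC and some SREBP forms recognise, was found for 4 of the 15 members that fell (INSIG1, LSS, SCAP and SC5D). This E-box was found for 12.3% of tested genes, 16.9% of all that fell and 10.3% of all that rose. A perfect LXR element, a direct repeat of AGGTCA with 4 bases between, was in no member's window and in 0.0199% of all windows. Matches that overlapped were each counted. No test was made on these counts, and a match is only a run of letters.

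Most sterol synthesis genes carried far less signal after HHT. Among all members, the loss was deepest in INSIG1 (SREBP control), TMEM97 (sterol movement) and the synthesis genes LSS, SQLE and DHCR7. Of the 28 members tested, 17 fell and 5 rose, against 24.2% of all tested genes called lower and 29.6% called higher (limma, adjusted p under 0.05). By at least 1 on the log2 scale, 12 members fell and 1 rose, where 5.94% of all genes fell and 9.56% rose. The median member change was -0.76, beside 0 for all genes (-4.15e-05). The members' HHT and vehicle arrays did not overlap for 17 lower and 6 higher members, against 29.0% and 33.2% of all genes. By control, 15 of the 20 tested members under SREBP2 fell and 3 rose, with a median of -1.29. Of the 3 tested under LXR, 1 rose and 2 were not called, with a median of 0.71 (that of ABCG1, not called). The LXR median was 0.34 with a pseudocount of 64, 0.37 without a filter (then over 4 members, with ABCA1) and 0.95 with array medians set equal. The SREBP2 median was -1.21, -1.27 (with MVD included) and -1.05 in the same order. The cells were measured in bulk, so fewer cells of a type and less RNA per cell cannot be told apart.

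**Figure D1:**
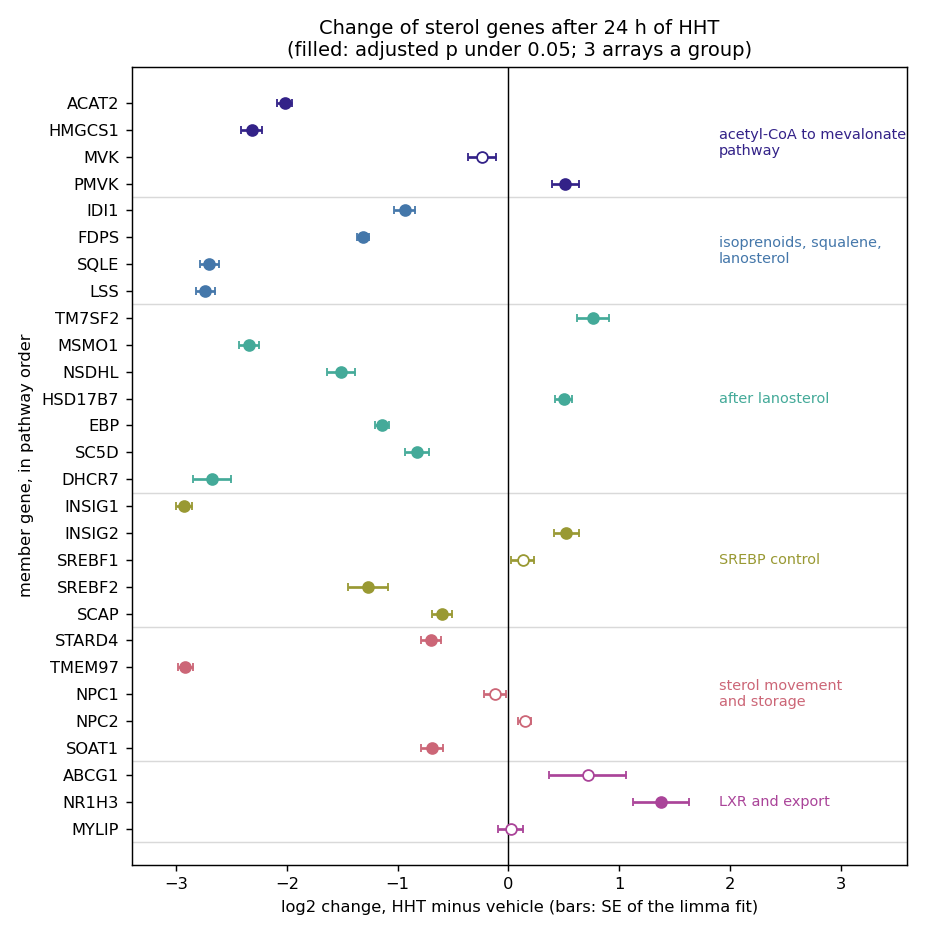
Log2 change (HHT minus vehicle) of the 28 members that passed the filter, in pathway order, with the standard error of the limma fit from 3 arrays a group. Filled points had an adjusted p under 0.05: 17 lie left of 0, down to -2.93 for INSIG1, and 5 lie right of it, up to 1.37 for NR1H3.

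Some facts of the whole series bear on these values. The deposited signals are log2 values scaled per array. Array medians ran from 5.82 to 5.96 in vehicle and from 5.53 to 5.77 in HHT, and 18 hybridisation control probe sets averaged 11.96 to 12.01 in vehicle and 11.63 to 11.75 in HHT. Setting the medians equal added 0.24 to every change and setting these controls equal added 0.28, and the share of all genes called lower then went from 24.2% to 12.7% and 12.8%, while the share called higher went from 29.6% to 37.3% and 41.6%. The count of members called lower stayed at 17 in both cases, and that of members called higher went from 5 to 7 and 8. Of the called members, SCAP, STARD4, SOAT1, SC5D, HSD17B7, PMVK and INSIG2 moved by over 1.5 times with equal controls, to -0.31, -0.41, -0.41, -0.54, 0.78, 0.80 and 0.81, and all were still called. With equal medians SCAP, STARD4 and SOAT1 were at -0.36, -0.46 and -0.45, called as well. Markers of the myeloblast line were bright in vehicle: KIT averaged 14.83, MPO 14.39, RUNX1T1 13.23 and CD34 9.20, all 4 of the measured list. Their summed signal ran from 15.83 to 16.00 on the log2 scale in vehicle and from 15.06 to 15.15 in HHT. MPO (-1.76), CD34 (-1.18) and KIT (-0.62, or -0.23 after quantile normalization) fell and RUNX1T1 (-0.03) was not called. RUNX1T1 was called at 0.23 after quantile normalization, at 0.26 with equal hybridisation controls and at -0.25 from the mean of its probe sets. Of 6 measured markers of other cell types, vehicle means were 3.86 for PPBP, 4.56 for COL1A2, 5.84 for CD3E, 5.85 for KRT18 and 7.44 for CD79A, and EPCAM stood at 13.69. Their summed signal, nearly all EPCAM, ran from 13.70 to 13.74 in vehicle and from 12.89 to 13.06 in HHT, and its part in the results was not tested.

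At the entry of the pathway, the first enzymes fell together and the later kinases did not. ACAT2, the cytosolic thiolase that joins acetyl-CoA units, had log2 signals of 12.05, 12.16 and 12.00 in vehicle and 10.06, 10.03 and 10.07 in HHT. It fell by 2.02 (SE 0.0686, adjusted p = 2.16e-08), 4.05-fold, with an SD of 0.0830 in vehicle and 0.0215 in HHT. HMGCS1, the HMG-CoA synthase that uses its product, had 12.50, 12.82 and 12.44 against 10.22, 10.29 and 10.30. HMGCS1 fell by 2.32 (SE 0.0948, adjusted p = 4.76e-08), and its second probe set fell by 2.75. For both genes every HHT array lay about 2 log2 units under the lowest vehicle array. MVK, the mevalonate kinase, averaged 8.94 ± 0.161 (SD, n = 3) in vehicle and 8.70 ± 0.134 in HHT. Its change of -0.24 was not called (adjusted p = 0.143) and its groups overlapped, though a dimmer MVK probe set fell by 0.77 (adjusted p = 0.0152). PMVK, the next kinase, had 10.34, 9.96 and 10.44 in vehicle and 10.71, 10.70 and 10.88 in HHT. Every HHT array lay above every vehicle array, and PMVK rose by 0.51 (SE 0.119, adjusted p = 0.00464). MVD, the decarboxylase that follows, lay between 2.03 and 5.05 over the 6 arrays, under the filter level of 4.80 on 5 of them, and was not tested.

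All 4 tested members that lead from isoprenoids to lanosterol fell, where 24.2% of all tested genes did. IDI1, which isomerises isopentenyl diphosphate, averaged 13.47 ± 0.220 in vehicle and 12.53 ± 0.0735 in HHT. It fell by 0.94 (SE 0.0964, adjusted p = 1.74e-05), the least of the 4, and the mean of its probe sets, at -0.24, was not called (adjusted p = 0.0692). FDPS, the farnesyl diphosphate synthase, fell by 1.31 (SE 0.0543), from 13.12 ± 0.0389 to 11.81 ± 0.0362. SQLE, the epoxidase that first adds oxygen to squalene and a known control point, had 12.79, 12.79 and 12.57 in vehicle and 10.11, 10.03 and 9.91 in HHT. SQLE fell by 2.70 (SE 0.0836, adjusted p = 1.47e-08), 6.50-fold. LSS closes the rings to form lanosterol. It had 11.26, 11.48 and 11.36 in vehicle and 8.65, 8.59 and 8.64 in HHT, and fell by 2.74 (SE 0.0852, adjusted p = 1.47e-08), 6.66-fold. The fall was thus over 1 log2 unit deeper in SQLE and LSS than in FDPS and IDI1, as measured on single probe sets whose response can differ.

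After lanosterol, 5 of 7 tested members fell and 2 rose, where 24.2% of all tested genes fell and 29.6% rose. Neighbouring steps thus went opposite ways, though the 2 that rose were each measured on a single probe set. TM7SF2, a sterol reductase that acts on the first product of lanosterol demethylation, had 7.86, 8.08 and 8.11 in vehicle and 8.80, 8.57 and 8.97 in HHT. TM7SF2 rose by 0.76 (SE 0.143, adjusted p = 0.00119), without overlap. MSMO1, the methyl oxidase of the next step, had 12.03, 12.10 and 11.82 against 9.52, 9.71 and 9.69. MSMO1 fell by 2.35 (SE 0.0907, adjusted p = 3.60e-08), 5.09-fold. NSDHL, the dehydrogenase that works with MSMO1, fell by 1.51 (SE 0.126). HSD17B7, the keto reductase of the same demethylation, had 10.83, 11.07 and 10.95 in vehicle and 11.47, 11.42 and 11.46 in HHT. It rose by 0.50 (SE 0.0744, adjusted p = 0.000254) on a single probe set whose identifier marks probes that can match other transcripts. Because of such probes, the signal of HSD17B7 and that of its near-identical copy HSD17B7P2 cannot be fully separated. The copy's own probe set, named after its values were seen, averaged 4.72 in vehicle and 4.54 in HHT and was not tested. EBP, a sterol isomerase, fell by 1.14 (SE 0.0597), and all 4 of its probe sets fell. The largest fall, 1.75 (SE 0.494), was on the dimmest of them, which averaged 4.99 ± 0.906 in HHT, near the filter level. SC5D, the desaturase, averaged 10.88 ± 0.223 and 10.05 ± 0.0365 and fell by 0.83 (SE 0.106), but its mean over probe sets, a dim one included, was not called (-0.44, adjusted p = 0.0735). DHCR7, the reductase of the last step, had 10.54, 10.85 and 10.30 in vehicle and 7.87, 8.20 and 7.60 in HHT. DHCR7 fell by 2.67 (SE 0.171, adjusted p = 6.87e-07), 6.38-fold, and its second probe set fell by 2.22.

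**Figure D2:**
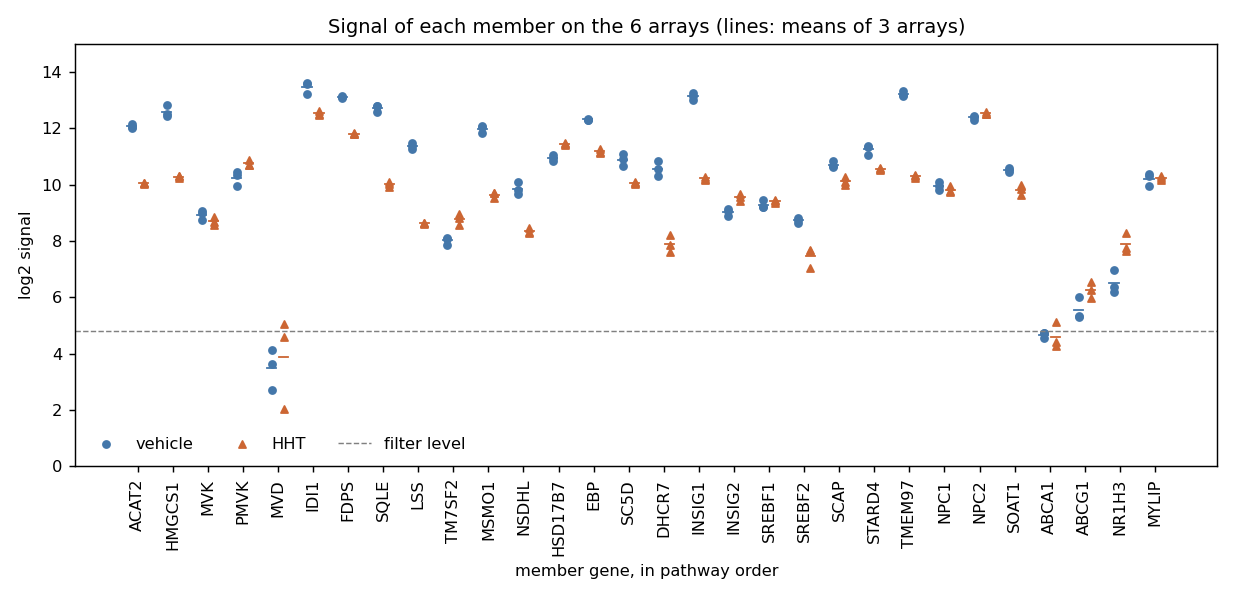
Log2 signal of the 30 measured members on each of the 6 arrays (circles, vehicle; triangles, HHT; short lines, means of 3 arrays), in pathway order. Synthesis genes such as SQLE and LSS show vehicle and HHT arrays far apart, while MVD and ABCA1 lie near or under the dashed filter level of 4.80.

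In the control of SREBP, the INSIG paralogues went opposite ways. INSIG1 had 13.16, 13.27 and 13.02 in vehicle and 10.17, 10.21 and 10.29 in HHT. It fell by 2.93 (SE 0.0742, adjusted p = 5.29e-09), 7.61-fold, which placed it at rank 13 of 13572 genes from the lowest change, with TMEM97 at rank 14. Its other probe sets fell by 3.07 and 2.84. INSIG2 had 9.08, 9.13 and 8.87 in vehicle and 9.66, 9.55 and 9.43 in HHT, so every HHT array was higher, and it rose by 0.52 (SE 0.109, adjusted p = 0.00241). Within an array, INSIG1 minus INSIG2 went from 4.13 ± 0.0348 to 0.67 ± 0.178, a change of -3.45 that no scaling factor per array can alter. The exact permutation test gave p = 0.1 (two-sided, the smallest possible with 3 arrays against 3), and p = 0.125 after adjustment over 5 pairs of members.

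SREBF2 encodes SREBP2, the form that mainly drives cholesterol synthesis. It had 8.81, 8.63 and 8.75 in vehicle and 7.65, 7.05 and 7.68 in HHT, and fell by 1.27 (SE 0.182, adjusted p = 0.000191), 2.41-fold. Its HHT arrays were all lower, with replicate 2 the lowest, and its other 2 probe sets fell by 0.76 and 0.83. SREBF1, which encodes SREBP1 and responds to LXR as well, had 9.20, 9.20 and 9.46 in vehicle and 9.36, 9.47 and 9.40 in HHT. These groups overlapped and the change of 0.13 (SE 0.104) was not called (adjusted p = 0.341), but with equal hybridisation controls it was, at 0.41 (adjusted p = 0.00789). A dimmer SREBF1 probe set fell by 1.64 (SE 0.539, adjusted p = 0.0284), so the direction for SREBF1 depends on the probe set. SREBF1 minus SREBF2 changed by 1.40 within arrays, with an exact permutation p = 0.1 (two-sided, adjusted p = 0.125). From the means of all their probe sets that change was 0.20, with an exact permutation p = 0.9. SCAP, the escort of SREBP, had 10.83, 10.65 and 10.68 in vehicle and 9.97, 10.11 and 10.27 in HHT, and fell by 0.60 (SE 0.0935, adjusted p = 0.000353).

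**Figure D3:**
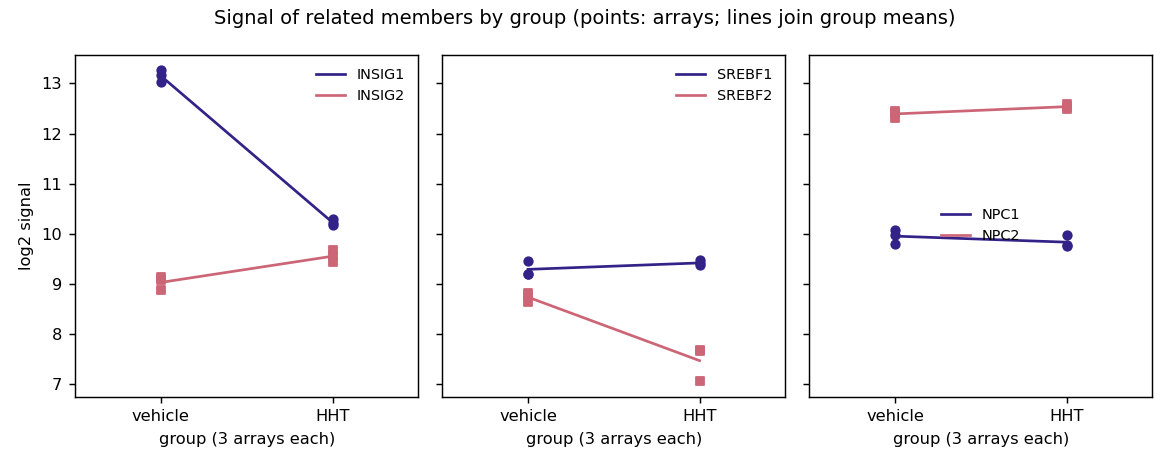
Log2 signal on each array for INSIG1 and INSIG2, SREBF1 and SREBF2, and NPC1 and NPC2, with lines joining the means of 3 arrays in vehicle and HHT. INSIG1 fell by 2.93 while INSIG2 rose by 0.52, SREBF2 fell by 1.27, and NPC1 and NPC2 move little; heights of different genes are not comparable, since each probe set has its own response.

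Among genes that move or store sterols, the response was split. TMEM97, a membrane protein that binds NPC1 and is known as the sigma-2 receptor, had 13.32, 13.16 and 13.18 in vehicle and 10.36, 10.30 and 10.25 in HHT. TMEM97 fell by 2.92 (SE 0.0665, adjusted p = 5.29e-09), 7.55-fold, and its other 3 probe sets changed by -2.98, -2.56 and -2.22, all called. STARD4, a soluble sterol carrier, averaged 11.25 ± 0.174 and 10.56 ± 0.0314 and fell by 0.70 (SE 0.0894). SOAT1, which stores cholesterol as esters, averaged 10.52 ± 0.0667 and 9.83 ± 0.180 and fell by 0.69 (SE 0.0997), with its other 2 probe sets down by 0.48 and 0.41. NPC1 and NPC2 pass cholesterol out of the lysosome. NPC1 averaged 9.95 ± 0.142 and 9.83 ± 0.117, a change of -0.12 that was not called (adjusted p = 0.361) and that changed sign with equal medians (0.12) or equal hybridisation controls (0.16). NPC2 had 12.45, 12.41 and 12.31 in vehicle and 12.52, 12.50 and 12.59 in HHT. These arrays did not overlap, but the change of 0.15 (SE 0.0597) was not called (adjusted p = 0.0696). NPC2 was called at 0.38 with equal medians, 0.43 with equal hybridisation controls, 0.25 after quantile normalization and 0.18 without vehicle replicate 1. NPC1 minus NPC2 changed by -0.27 within arrays (exact permutation p = 0.1, two-sided, adjusted p = 0.125).

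In the LXR arm, 1 of the 3 tested members rose and 2 were not called, where 29.6% of all tested genes rose. So small a count sets the arm no further apart from that share. Most of these members were dimmer and less precisely measured than the synthesis genes. NR1H3, which encodes LXR alpha, had 6.96, 6.20 and 6.38 in vehicle and 7.76, 7.63 and 8.27 in HHT. NR1H3 rose by 1.37 (SE 0.254, adjusted p = 0.00111), 2.59-fold, with every HHT array above every vehicle array. ABCG1, an exporter of cholesterol to lipoproteins, had 5.30, 5.33 and 6.01 in vehicle and 6.54, 5.98 and 6.27 in HHT. Vehicle replicate 3 overlapped the HHT arrays, and the change of 0.71 (SE 0.350) was not called (adjusted p = 0.122). With equal medians, ABCG1 stood at 0.95 (adjusted p = 0.0480), and with equal hybridisation controls at 1.00 (adjusted p = 0.0409), past the threshold in both. ABCA1, the other main exporter, lay between 4.26 and 5.12 on its brightest probe set, under the filter level on 5 of 6 arrays, and was not tested. Within arrays, ABCA1 minus ABCG1 changed by -0.79 (exact permutation p = 0.2, two-sided, adjusted p = 0.2) and HMGCS1 minus ABCA1 by -2.24 (exact permutation p = 0.1, two-sided, adjusted p = 0.125), both limited by the dim ABCA1 signal. MYLIP encodes a ubiquitin ligase that removes lipoprotein receptors. Its brightest probe set averaged 10.22 ± 0.231 and 10.24 ± 0.0708, a change of 0.02 (adjusted p = 0.900). Its other probe sets disagreed: 1 fell by 1.68, 1 fell by 0.27, 1 rose by 0.64 and 1, at 0.30, was not called (adjusted p = 0.0578).

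Several probe sets of one gene gave a second look at the change of 16 members. The members that rose (PMVK, TM7SF2, HSD17B7, INSIG2 and NR1H3) each had only 1 probe set, so their rises had no such second look. Of 72 member probe sets, 61 passed the filter, of which 41 fell, 7 rose and 13 were not called, where 23.3% of all tested probe sets fell and 23.0% rose. Among the 16 members with more than 1 probe set past the filter, 10 had all of them called the same way: HMGCS1, SQLE, LSS, NSDHL, EBP, DHCR7, INSIG1, SREBF2, TMEM97 and SOAT1. IDI1 and MYLIP had probe sets called in both directions. For IDI1 the pair of bright probe sets fell by 0.94 and 0.82, a dimmer one rose by 0.64 (adjusted p = 0.00991), and the last, at 0.16, was not called. The 3 of these that were called have identifiers that mark probes able to match other transcripts.

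**Figure D4:**
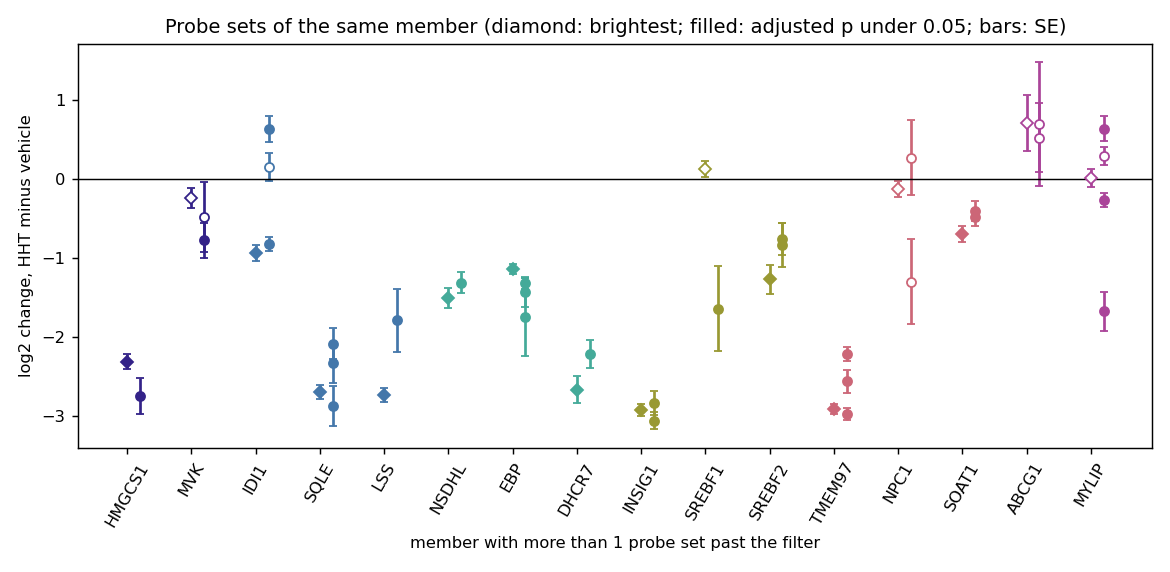
Log2 change with standard error for each probe set past the filter, for the 16 members with more than 1 (diamond, the brightest; filled, adjusted p under 0.05; 3 arrays a group). The probe sets of INSIG1 lie between -3.07 and -2.84 and those of TMEM97 between -2.98 and -2.22, whereas those of IDI1 and MYLIP lie on both sides of 0.

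Other genes of the same pathways were taken from lists written for this purpose, and no test was made on the lists. Of all tested genes, 24.2% fell and 29.6% rose. Those shares were 12.7% and 37.3% with equal medians, and 12.8% and 41.6% with equal hybridisation controls. From means of probe sets they were 23.0% and 24.0%. Of 10 tested lipid genes that SREBP1 is known to drive, 7 fell and 1 rose, with a median of -1.08. FASN, the fatty acid synthase, fell by 2.85 (SE 0.130), from 10.53 ± 0.0260 to 7.68 ± 0.253, and by 1.75 in the mean of its probe sets (adjusted p = 0.0122). SCD, the desaturase, fell by 2.85 as well (SE 0.0664), from 12.89 ± 0.0589 to 10.05 ± 0.0709. LPIN1, a phosphatidate phosphatase, was the member of that list that rose, by 0.73. Farnesyl diphosphate also feeds branches that do not make sterols. Of 12 tested genes of those branches 4 fell and 6 rose, with a median of 0.22. ICMT, which methylates prenylated proteins, fell by 1.80 (SE 0.0727), but its mean over probe sets, at -0.51, was not called (adjusted p = 0.221). FNTB, a farnesyltransferase subunit, rose by 1.08 (SE 0.290), or by 0.67 with a pseudocount of 64. From means of probe sets, 3 genes of these branches fell and 4 rose. Among 8 genes that process SREBP or degrade sterol-regulated proteins, 4 fell and 2 rose, but 2 fell and 3 rose with equal medians or equal hybridisation controls, and from means of probe sets 3 were called, each of them lower. MBTPS1, the first protease that cuts SREBP, fell by 0.97 (SE 0.0955), or by 0.63 in the mean of its probe sets, while MBTPS2, the second, rose by 0.91 (SE 0.0941). The mean of the MBTPS2 probe sets, at 0.20, was not called (adjusted p = 0.495). Of 5 LXR partners and further targets, 3 fell and 1 rose, and with equal medians or equal hybridisation controls 1 fell and 2 rose; from means of probe sets 1 fell and 1 rose. The coactivator NCOA1 rose by 1.14 (SE 0.0809) and LPCAT3, a phospholipid enzyme, fell by 0.73 (SE 0.142), or by 0.45 with equal hybridisation controls, although the mean of its probe sets, at -0.04, was not called (adjusted p = 0.835).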

How the data were processed

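The submitters' processing notes name MAS5, without a version, for 6 one-colour Affymetrix arrays of Kasumi-1 RNA. Each deposited value is the log2 signal of 1 probe set, and the values show the scaling by the authors: the mean linear signal, with 2% trimmed at each end, was between 500.06 and 500.07 on every array. They were used as deposited. The 62 control probe sets and the 40% of the rest with the lowest mean (up to 4.80) were left out, and 32768 were tested. Probe sets annotated to 1 gene were used, with symbols updated through RefSeq (GRCh38.p14), and a gene was its brightest such probe set. HHT was tested against vehicle in limma 3.58.1 (R 4.3.3), with lmFit, eBayes with a variance trend, and Benjamini-Hochberg adjustment over all probe sets tested, with calls at an adjusted p under 0.05, and the test was tried on simulated data. Rose and fell refer to calls. SE is the standard error of a log2 change and SD that of 3 arrays; the number of arrays limits precision. Related members were compared by exact permutation of within-array differences. RefSeq promoter windows were found for 29 of the 33 members. All members are named; of the other lists, the 2 called genes with the largest change are, with all markers; other genes were named after their values were seen (LPIN1, HSD17B7P2, GRAMD1C). The members, lists and tests were chosen with earlier results of these data known. Alternatives were 3 other scalings, a pseudocount of 64, no filter and a 60% filter, no variance trend, the replicate number as a block, averaging all probe sets of a gene, a minimum log2 change of 1, and leaving out each array.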

Additional observations from a re-analysis of the deposited data

How the results depend on the processing

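Of the 28 members tested, 20 kept their direction and their side of the threshold under all 15 other fits. The count called lower was 17 throughout, except 16 from the means of probe sets, where IDI1 (-0.24, adjusted p = 0.0692) and SC5D (-0.44, adjusted p = 0.0735) were not called and SREBF1 was called at -0.76 (adjusted p = 0.0423). The count called higher was 5 to 6 when single arrays were left out and 8 with equal hybridisation controls, where SREBF1 was called at 0.41. Among LXR-controlled members it was 1 when single arrays were left out, but 2 with equal medians, and 2 once hybridisation controls were equal. With a minimum change of 1, 1 member rose (NR1H3), and thus 0 of the SREBP2-controlled ones, of which limma called 3 without that minimum. Changes that were not called and turned sign were MVK with equal hybridisation controls (0.043), NPC1 with equal medians (0.12) and equal hybridisation controls (0.16), and MYLIP from means of probe sets (-0.16), after quantile normalization (-0.092) and without HHT replicate 1 (-0.017) or vehicle replicate 2 (-0.11). Leaving out arrays gave MYLIP values from -0.11 to 0.11. Within-array differences taken from means of probe sets moved to 0.20 for SREBF1 minus SREBF2, -2.39 for ABCA1 minus ABCG1 (from -0.79) and -1.33 for HMGCS1 minus ABCA1 (from -2.24), where ABCA1 is near or under the filter level. Leaving out arrays gave ranges of -3.54 to -3.37 for INSIG1 minus INSIG2, 1.16 to 1.52 for SREBF1 minus SREBF2, -0.34 to -0.20 for NPC1 minus NPC2, -1.20 to -0.56 for ABCA1 minus ABCG1 and -2.42 to -1.98 for HMGCS1 minus ABCA1. The cause of these shifts was not tested. With the replicate number as a block, 17 members fell and 5 rose, and 3333 and 4061 of all genes did. The labels share only the number: deviations of same-numbered arrays correlated at 0.0655, -0.0141 and 0.0491 over probe sets.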

Other observations

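Genes of sterol transport and esters outside the members above, in a list that also held CYP27A1, were called in both directions. Of 14 tested, 6 rose and 2 fell, CYP27A1 among the latter. The median of the list was 0.27, beside 0 (-4.15e-05) for all genes, of which 29.6% rose and 24.2% fell. OSBPL2, an oxysterol binding protein relative that moves lipids between membranes, rose by 1.22 (SE 0.173), from 8.63 ± 0.371 to 9.85 ± 0.176. CYP27A1, which makes an oxysterol that activates LXR, fell by 1.85 (SE 0.515, adjusted p = 0.0129) from 6.86 ± 0.204 to 5.01 ± 1.15, a call that the fit without a variance trend did not make (adjusted p = 0.0507). The call for CYP27A1 was kept at -1.19 without HHT replicate 3 and at -0.84 with a pseudocount of 64. With equal medians 8 of the list rose, where 37.3% of all genes did, and with equal hybridisation controls 10, where 41.6% did, while 2 fell in both cases. Without a variance trend 4 rose and 1 fell, and when single arrays were left out 5 rose, or 4 without HHT replicate 3. GRAMD1C, a sterol carrier between the plasma membrane and the endoplasmic reticulum, did not pass the filter. It averaged 1.76 ± 0.944 in vehicle and 5.17 ± 0.693 in HHT, under the filter level of 4.80 on 4 of the 6 arrays.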
